A study of Mus musculus with 8 samples.

Results

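The 42 genes described here encode the machinery that shortens the poly(A) tail of mRNAs, removes their cap and degrades the remaining body. They were chosen by gene symbol and comprise 9 genes of the CCR4-NOT deadenylase, 3 genes of the PAN and PARN deadenylases, 4 genes of the Tob and cytoplasmic poly(A)-binding proteins, 7 decapping genes, 7 genes of the LSM ring, 2 XRN exonucleases, 9 exosome genes and the helicase gene Upf1. All 42 symbols were found among the 23143 gene symbols of the count table. RNA had been sequenced from RAW264.7 cells, a mouse macrophage line, left unstimulated (0 min) or stimulated with 100 ng/ml LPS, a bacterial cell wall component that engages TLR4, for 15, 30, 45, 60, 75, 90 or 120 min. Ribosomal RNA had been depleted and the libraries were strand-specific. The sample labels give the RNA fraction as cytoplasmic while the molecule is given as total RNA, and the text of the study describes total RNA. Each time point was represented by 1 library of this 1 cell line. Differences between time points were therefore not checked by a second culture, and 95% intervals in parentheses take account of counting error alone.

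Most mRNAs in the cytoplasm are degraded after their poly(A) tail has been removed, first by PAN2-PAN3 and then by the CCR4-NOT complex. The shortened mRNA is decapped by DCP2 together with its activators and digested from the 5′ end by XRN1, or it is digested from the 3′ end by the exosome. In macrophages, this machinery is recruited to cytokine mRNAs by proteins that bind AU-rich elements, which limits the time these mRNAs persist after stimulation.

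The total number of counts per library ranged from 100250892 to 159077286, and the 42 genes together took between 0.304% and 0.347% of them. Counts were divided by median-of-ratios size factors (0.71 to 1.23), which set the median gene close to no change, and are called normalized counts below. Orders of libraries given below are those of normalized counts, and some of them differ when counts are taken relative to library totals. The ribosomal RNA precursor Rn45s took 8.18% to 9.11% of the counts in the 0, 30, 60 and 120 min libraries and 13.0% to 20.5% in the 15, 45, 75 and 90 min libraries. The macrophage markers Csf1r (799 to 1087 cpm, counts relative to the library total), Lyz2, Itgam, Cd68, Emr1 and Cd14 were present in all 8 libraries. Of the markers of T cells, B cells, fibroblasts and epithelium, Cd79a had 3 to 16 counts, whereas Cd3e, Cd3g, Col1a1, Pdgfra, Epcam and Krt8 had 0 to 2. The normalized count of Tnf was 40.3-fold that of the 0 min library at 120 min, which shows that the cells had responded.

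Most of the decay machinery remained close to its level in unstimulated cells, whereas Pabpc1, which encodes the main cytoplasmic poly(A)-binding protein, and Ddx6, which encodes a helicase that activates decapping, were 1.99-fold and 1.97-fold higher at 120 min. A gene was called higher or lower when its log2 ratio between 2 libraries was beyond 0.5 and an exact negative binomial test, with a dispersion fitted over all 8 libraries as if they were replicates, passed its limit of 0.05 without adjustment. According to the methods of the study, such a dispersion is more likely too large than too small. A gene that was not called is therefore not shown to be unchanged. Each call compares 2 libraries and not 2 conditions. It was made for the 10494 genes whose normalized counts averaged 100 or more, and all 42 decay genes were among them. In bulk RNA, a change in the number of expressing cells and a change in the RNA per cell cannot be told apart.

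At 15 and 30 min, none of the 42 genes was called, against 0.324% of all genes tested called higher and 0.152% called lower at 15 min, and 1.29% and 0.172% at 30 min. At 60 min, 0 of the 42 genes were called (4.05% of all genes higher, 3.16% lower). At 45 min, Pabpc1, Ddx6 and Xrn1 were called higher and no gene was called lower. These 3 of 42 genes compare with 4.6% of all genes called higher and 1.88% called lower. With total counts as the scale, 1 of the 3, Pabpc1, was called at 45 min. In each of the 3 later libraries, Pabpc1 and Ddx6 were called higher and none of the other 40 genes was called in either direction. On the scale of total counts, no gene was called higher in these 3 libraries, and Tob1 was called lower at 120 min. Of all genes tested, 5.93% were called higher and 4.39% lower at 75 min. These shares rose to 6.97% and 5.63% at 90 min. They reached 9.27% and 8.52% in the last library.

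The median log2 ratio of the 42 genes to the 0 min library was 0.02 in the 15 min library and 0.08 in the 45 min library. It was 0.12 after 60 min of LPS and 0.16 after 120 min, where the middle 50% of the genes lay between −0.11 and 0.42. The median of all genes tested at 120 min was −0.01, with quartiles of −0.28 and 0.29. At 120 min, 28 of the 42 genes (66.7%) lay above 0 by any amount, against 49% of all genes tested. The sign of the median of the 42 genes depended on the scale. A change of scale shifts all genes of a library by the same amount. The distance between the median of the 42 genes and that of all genes tested therefore cannot change with it. With total counts as the scale, the median of all genes tested moved to −0.21 and that of the decay genes to −0.04. On this scale 20 of the 42 genes lay above 0, and the share of all genes above 0 was not counted. The range between the highest and the lowest of the 8 libraries was small for most members. It had a median of 0.39 on the log2 scale, against 0.43 for all genes tested, and extended from 0.14 for Lsm2 to 1.37 for Tob1. It was below 0.5 for 31 of 42 genes (73.8%, against 57.7% of all genes tested). These comparisons were not matched for expression, and counting error widens the range of genes with low counts.

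**Figure D1:**
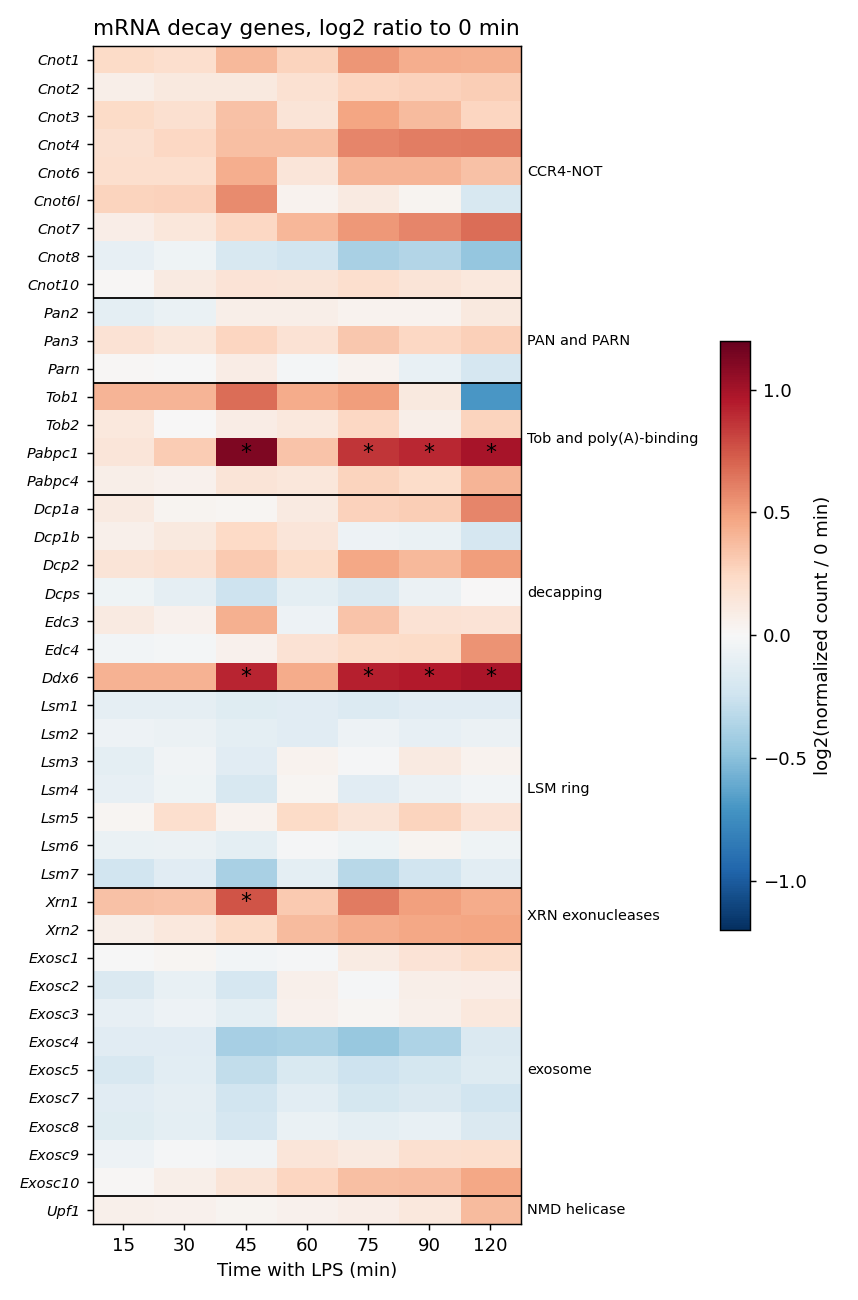
Log2 ratio of the normalized count at 15 to 120 min of LPS (columns) to the 0 min library for the 42 genes (rows, grouped by complex, 1 library per time point), where red is higher, blue is lower and an asterisk marks a call. Pabpc1 and Ddx6 carry asterisks at 45, 75, 90 and 120 min and Xrn1 at 45 min, whereas no LSM or exosome gene carries one.

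Among the genes of the CCR4-NOT complex, none was called against the 0 min library, and the 2 interchangeable exonuclease subunits CNOT7 and CNOT8 differed in direction. Cnot7 had normalized counts of 6986, 7406, 7688, 8291, 9220, 9995, 10483 and 11147 in the order of time from 0 to 120 min. Cnot8 had 8261, 7714, 7995, 7232, 7065, 6302, 6472 and 5990.1 in the same order. By normalized counts, each library lay above the one before it for Cnot7, with the 0 min library the lowest of the 8. For Cnot8 the 0 min library was the highest and the 120 min library the lowest. Relative to library totals, Cnot7 was lower at 45 than at 30 min and at 75 than at 60 min. On that scale Cnot8 was lowest at 75 min. At 120 min the ratio to the 0 min library was 1.60 (1.55–1.64) for Cnot7 and 0.725 (0.703–0.747) for Cnot8. The log2 ratio of 0.67 made Cnot7 (chr8:40492538-40515847, GRCm38) the third highest of the 42 genes at 120 min. Cnot8 (chr11:58092794-58118597), with a log2 ratio of −0.46, was the second lowest.

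The ratio of the counts of 2 genes within a library does not depend on the scale. Cnot7 had 0.846 counts for each count of Cnot8 at 0 min and 1.86 at 120 min, a 2.20-fold change of the ratio (2.11–2.29), after a 1.54-fold change (1.48–1.61) at 60 min. The order of the 2 genes by counts was therefore inverted between the 30 and the 45 min libraries, in which the ratio was 0.962 and 1.15. Per length of transcript, Cnot8 was at 37.3 rpkm and Cnot7 at 22.6 rpkm at 0 min. Cnot8 was still the higher at 60 min (29.8 against 27.9 rpkm) and was the lower at 120 min (23.5 against 31.4 rpkm).

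The second pair of deadenylases of this complex, CNOT6 and CNOT6L, were both highest at 45 min and then separated. Cnot6 had normalized counts of 6321, 7252, 7267, 8573, 6989, 8383, 8369 and 8069.7 from 0 to 120 min, with all 7 stimulated libraries above the unstimulated one. Cnot6l had 2680.2, 3234, 3256, 3979, 2766, 2895, 2744 and 2349.5. The 45 min library was the highest for both genes, and the 120 min library was the lowest of the 8 for Cnot6l. Cnot6l was called lower at 120 min than at 45 min (log2 ratio −0.76), a pair of libraries in which 7.67% of all genes tested were called lower and 5.48% higher. The within-library ratio of Cnot6 to Cnot6l was 0.913-fold its 0 min value at 45 min (0.862–0.968) and 1.46-fold at 120 min (1.37–1.54). The longest transcripts of the 2 genes differ in length (2498 bases for Cnot6 and 8564 for Cnot6l). The direction of the change at 45 min did not hold under the correction for transcript length described below. At 0 min Cnot6l was expressed at 2.79 rpkm and Cnot6 at 23.1 rpkm.

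Cnot4, which encodes the ubiquitin ligase associated with the complex, had normalized counts of 2058, 2357, 2450.0, 2649.7, 2649, 3079.7, 3155 and 3175, and a log2 ratio of 0.63 at 120 min (1.54-fold, 1.47–1.62). All stimulated libraries lay above the unstimulated one, but the ratio did not pass the test. The log2 ratios of the remaining subunits at 120 min were 0.43 for Cnot1, the scaffold on which the complex assembles, 0.30 for Cnot2 and 0.26 for Cnot3, which form the NOT module, and 0.13 for Cnot10. Over all 9 genes the median was 0.30 and 7 of 9 lay above 0 (6 with total counts as the scale, where Cnot10 changes sign).

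The other deadenylases varied little. Pan2, the catalytic subunit of PAN2-PAN3, had normalized counts of 2406, 2213, 2272, 2529, 2533, 2478, 2473 and 2616. Pan3, which brings PAN2 to the mRNA, had 7606, 8587, 8335, 9065, 8579, 9505, 9037 and 9283, and all stimulated libraries lay above the unstimulated one. Relative to library totals, Pan3 at 75 and 90 min lay slightly below its 0 min level. The ratio of Pan3 to Pan2 was 1.12-fold its 0 min value at 120 min (1.06–1.19) and highest in the 15 min library (1.23-fold, 1.15–1.31). Parn, a poly(A)-specific ribonuclease with roles in small RNA maturation, had 2738, 2761, 2736, 2919, 2701, 2815, 2582 and 2375, with the 120 min library the lowest. Its ratio of 0.867 (0.825–0.912) at 120 min was the fourth lowest among the 42 genes and did not pass the test.

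Of the genes called against the 0 min library, Pabpc1 had the widest range. PABPC1 coats the poly(A) tail, binds eIF4G and is the point at which TOB proteins and PAN3 contact the mRNA. Its normalized counts were 24374, 26923, 30030.1, 53062, 30927, 44283, 45547 and 48450 from 0 to 120 min. The 45 min library was the highest, the 60 min library returned close to that of 30 min, and the 3 later libraries were high again. Pabpc1 (chr15:36595658-36609581) was 2.18-fold higher at 45 min (2.15–2.21), 1.27-fold at 60 min (1.25–1.29) and 1.99-fold at 120 min (1.96–2.02) than at 0 min. The rise from 15 to 45 min was called (2.94% of all genes tested were called higher and 1.51% lower in this pair), and so was the fall from 45 to 60 min (1.37% called lower, 1.29% higher), where Pabpc1 was the 1 gene of the 42 that was called in each case. This is a maximum at 45 min followed by a minimum at 60 min. A first maximum at any time before 60 min with a minimum at or after 60 min was found for 0.991% of all genes tested.

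The excursion of Pabpc1 at 45 min rests on single libraries that differ in other measures. The 45, 75 and 90 min libraries held 15.8% to 20.5% of their counts in Rn45s and the 30 and 60 min libraries 8.18% and 8.27%, whereas the 15 min library (13.0%) and the 120 min library (9.11%) did not follow this order for Pabpc1. The part of these library differences in the result was not tested. In the 0, 30, 60 and 120 min libraries alone, the log2 ratios of Pabpc1 were 0.30, 0.34 and 0.99, with a call at 120 min only. Without the 45 min library, Pabpc1 had a single maximum at the end of the time course, and without the 60 min library it had an early maximum and no minimum.

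Pabpc4, which encodes a related poly(A)-binding protein described in activated T cells, did not share this course. Its normalized counts were 18284, 19140, 18907, 20356, 20087, 22000, 21253 and 24281, with the highest value at 120 min (1.33-fold, 1.30–1.35, not called). The ratio of Pabpc1 to Pabpc4 within a library was 1.96-fold its 0 min value at 45 min (1.91–2.00), 1.15-fold at 60 min (1.13–1.18) and 1.50-fold at 120 min (1.46–1.53). Of the 58-base words of the Pabpc4 transcript, 65.8% also occur in Gm5088, and reads shared between 2 genes had been discarded, so its counts come from the remaining sequence.

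Tob1 and Tob2 encode antiproliferative proteins that bridge CNOT7 or CNOT8 and PABPC1. Tob1 had the lowest expression of all 42 genes (1.85 rpkm at 0 min) and the widest range. Its normalized counts were 463, 616, 614, 735, 631, 655, 503 and 285 from 0 to 120 min, so that 6 stimulated libraries were above the unstimulated one and the 120 min library was below it. The log2 ratio was 0.67 at 45 min (1.59-fold, 1.41–1.78) and −0.70 at 120 min (0.616-fold, 0.537–0.706), and neither was called. Between stimulated libraries, Tob1 was called lower at 120 min than at 60 min (0.452-fold, 0.397–0.514), the 1 gene of the 42 that was called in this pair, in which 4.3% of all genes tested were higher and 4.68% lower. It was also called lower at 120 min than at 45 min. With total counts as the scale, the log2 ratio at 120 min was −0.90 and was called.

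Tob2 was more abundant and nearly flat, with normalized counts of 5543, 6043, 5563, 5903, 6052, 6572, 5821 and 6649.8. The ratio of Tob1 to Tob2 was 1.49-fold its 0 min value at 45 min (1.32–1.68) and 0.514-fold at 120 min (0.448–0.590). The intervals of the 45 min and the 120 min library lie on opposite sides of 1.

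**Figure D2:**
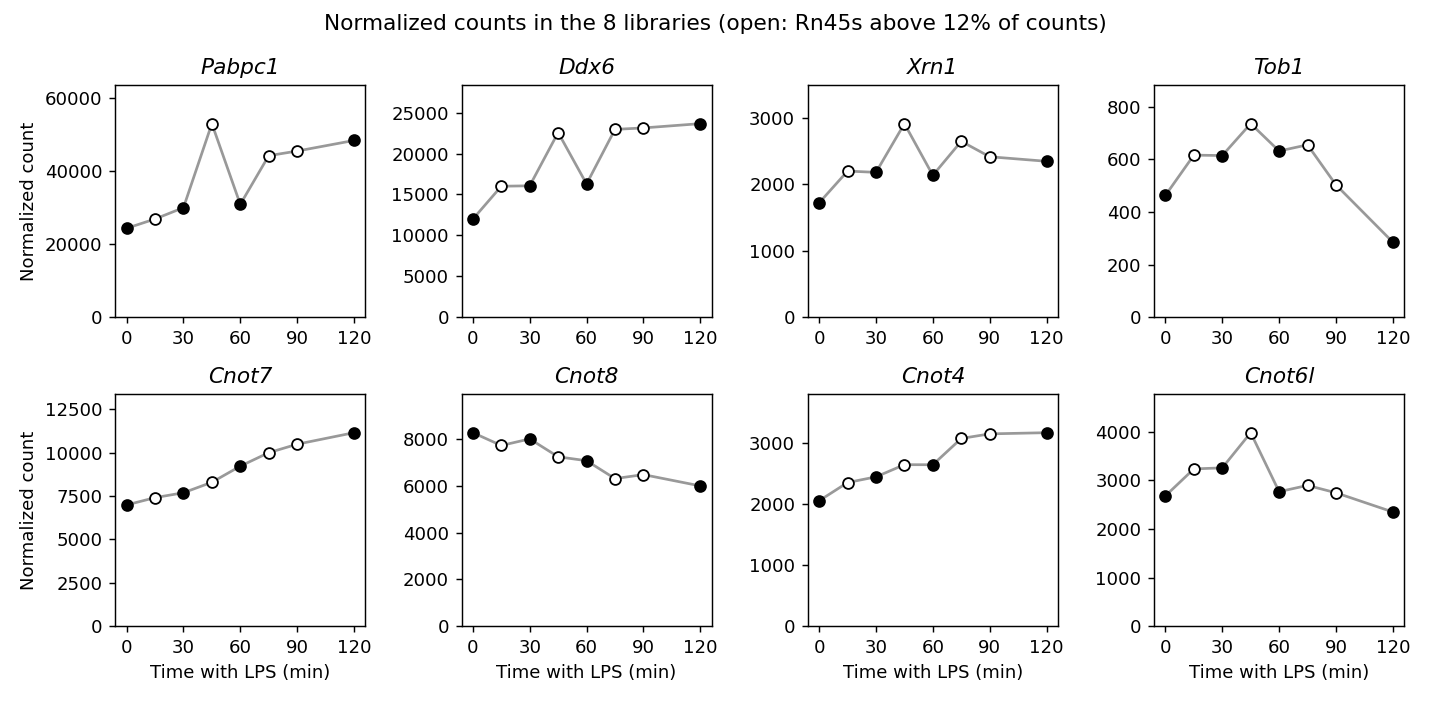
Normalized counts of 8 decay genes against the time with LPS (min), with 1 library per point, filled symbols for libraries with 8.18% to 9.11% of counts in Rn45s and open symbols for those with 13.0% to 20.5%. Pabpc1 peaks at 45 min and drops at 60 min, Ddx6 is high at 45 min and from 75 min on, Tob1 falls to its lowest value at 120 min, and Cnot7 is highest and Cnot8 lowest at 120 min.

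Of the decapping genes, Ddx6 was called. DDX6 is an abundant helicase that links CNOT1 to the decapping factors and is a core component of P-bodies. The normalized counts of Ddx6 (chr9:44602983-44640731) were 11988, 16002, 16056, 22568, 16282, 22949, 23127 and 23649.8, and all stimulated libraries lay above the unstimulated one. The 45, 75, 90 and 120 min libraries formed a high set, at 1.88-fold (1.84–1.92), 1.91-fold, 1.93-fold and 1.97-fold (1.93–2.01) the 0 min value. The 15, 30 and 60 min libraries lay close together, between the unstimulated library and this set. As for Pabpc1, 3 libraries of the high set (45, 75 and 90 min) had 15.8% to 20.5% of their counts in Rn45s and the 120 min library had 9.11%, and the part of this difference in the result was not tested. The difference between the 60 and the 45 min library (log2 ratio −0.47) was not called. In the 0, 30, 60 and 120 min libraries alone, the log2 ratio was 0.98 at 120 min and was called. With total counts as the scale, the log2 ratios of Pabpc1 and Ddx6 at 120 min were 0.79 and 0.78 and neither was called.

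The remaining decapping genes were not called, and their log2 ratios at 120 min ranged from −0.20 for Dcp1b to 0.59 for Dcp1a, which encode alternative forms of the DCP2 cofactor. Dcp1a had normalized counts of 6016, 6492, 6149.7, 6095, 6469.6, 7307, 7398 and 9027, with the 120 min library clearly the highest (1.50-fold, 1.46–1.55). Dcp1b had 909, 951, 987, 1075, 1003, 874, 862 and 790.2, highest at 45 min and lowest at 120 min (0.869-fold, 0.796–0.949). The ratio of Dcp1a to Dcp1b was 6.62 at 0 min, 0.857-fold that value at 45 min (0.780–0.942) and 1.73-fold at 120 min (1.58–1.89).

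Edc4, which encodes the scaffold of the decapping complex, and Dcp2, the decapping enzyme itself, were chosen for naming after the values had been seen. Edc4 had a log2 ratio of 0.05 at 45 min and 0.53 at 120 min, and Dcp2 had 0.31 and 0.50. Edc3, another activator, was highest at 45 min (log2 ratio 0.42) and was at 0.16 at 120 min. Dcps, which degrades the cap left by the exosome, was at 0.00 at 120 min. The median of the 7 decapping genes was 0.14 at 60 min and 0.50 at 120 min. With total counts as the scale, the latter was 0.30. By the fold limit alone, 5 of the 42 genes were above a log2 ratio of 0.5 at 45 min, 7 at 75 min and 4 at 90 min (8.35%, 10.9% and 12.1% of all genes tested). At 120 min, 7 of the 42 genes were above it (15.1% of all genes tested), and 4 of these, Dcp1a, Dcp2, Edc4 and Ddx6, were decapping genes. Below −0.5 was 1 gene, Tob1 (14% of all genes tested). Scaling by total counts left 2 genes above 0.5 at 120 min, Pabpc1 and Ddx6. With TMM factors as the scale, Dcp2 was no longer above 0.5. After the correction for transcript length described below, Ddx6 was at 0.86, Edc4 at 0.48, Dcp1a at 0.47 and Dcp2 at 0.20.

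The 7 genes of the LSM ring, which binds the 3′ end of deadenylated mRNAs and activates decapping, varied little. At 120 min their log2 ratios ranged from −0.13 for Lsm1, the subunit specific to the cytoplasmic ring, to 0.17 for Lsm5. Their median was −0.05, and −0.25 with total counts as the scale. The lowest ratio at any time was that of Lsm7 at 45 min (log2 ratio −0.39, 0.764-fold, 0.740–0.789). Lsm2, Lsm6 and Lsm1 had the narrowest ranges of all 42 genes, with log2 ratios of the highest to the lowest library of 0.14, 0.16 and 0.16.

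The XRN exonucleases differed in time course. Xrn1, which encodes the cytoplasmic 5′-to-3′ exonuclease that digests decapped mRNA, had normalized counts of 1721, 2199, 2179.8, 2913, 2135, 2647, 2415 and 2346. All stimulated libraries were above the unstimulated one, and the 45, 75 and 90 min libraries, those with 15.8% to 20.5% of counts in Rn45s, were the highest. The part of this difference was not tested. Xrn1 (chr9:95954750-96057806) was 1.69-fold higher at 45 min (1.60–1.79), its only call, and 1.36-fold at 120 min (1.29–1.44). Xrn2, which encodes the nuclear counterpart, had 23331, 24503, 25501, 27387, 30382, 31512, 32207 and 32485, where each library lay above the one before it, and a log2 ratio of 0.48 at 120 min that was not called. Relative to library totals, this order of Xrn2 was broken at 45 and 75 min. The ratio of Xrn1 to Xrn2 was 1.44-fold its 0 min value at 45 min (1.36–1.53) and 0.979-fold at 120 min (0.923–1.04). At 0 min, Xrn1 was at 2.82 rpkm and Xrn2 at 61.6 rpkm.

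**Figure D3:**
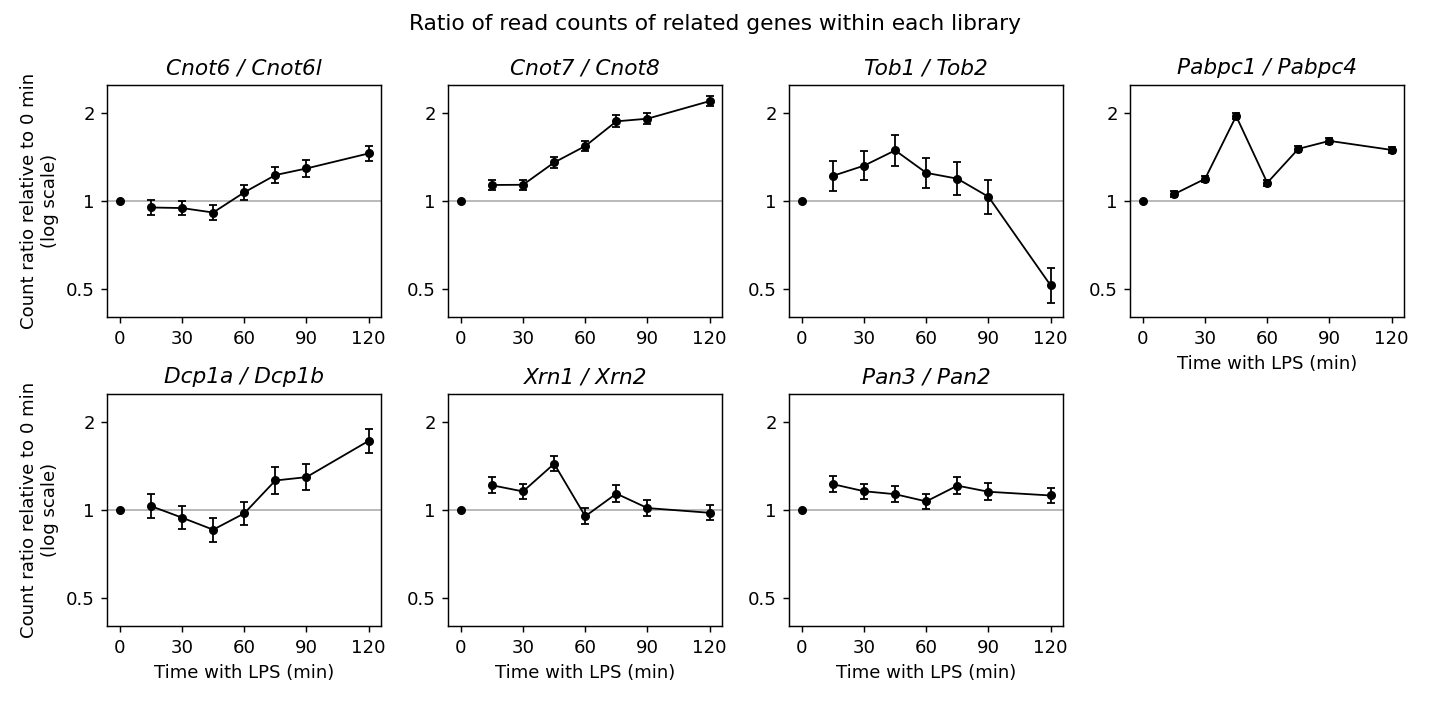
Ratio of the read counts of 7 pairs of related genes within each library, relative to the 0 min library (log axis), against the time with LPS (min), with 1 library per point and bars for 95% intervals of counting error. Cnot7/Cnot8 climbs to 2.20 and Dcp1a/Dcp1b to 1.73 at 120 min, Tob1/Tob2 drops to 0.514, and Pabpc1/Pabpc4 and Xrn1/Xrn2 have their highest points at 45 min.

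Of the 9 exosome genes, none was called against the 0 min library. At 45 min, 8 of 9 lay below 0, with a median log2 ratio of −0.20 and a lowest value of −0.40 for Exosc4. Their longest transcripts had 1020 to 2790 bases, and short transcripts had lower ratios among all genes tested. The median of all genes tested at 45 min was −0.18 at 877 to 1192 bases and −0.01 at 2755 to 2977 bases. At 120 min the median of the exosome genes was 0.08 (−0.12 with total counts as the scale) and values ranged from −0.23 for Exosc7 to 0.47 for Exosc10. Exosc7, a subunit of the catalytically inactive ring, had normalized counts of 8770.5, 8000, 8142, 7486, 8054, 7582, 7759 and 7462, and the unstimulated library was the highest. Its ratio at 120 min was 0.851 (0.827–0.875). Exosc10, the nuclear exonuclease subunit, also chosen after the values had been seen, had 15418, 15575, 16138, 17176, 18376, 19807, 19879 and 21326, where each library lay above the one before it, as for Cnot7 and Xrn2. As for these genes, the order of Exosc10 was broken at 45 and 75 min relative to library totals. Exosc4 was lowest at 75 min (0.730-fold, 0.694–0.768). Upf1, which encodes the helicase of nonsense-mediated decay, stayed between a log2 ratio of 0.03 and 0.12 up to 90 min and was at 0.38 at 120 min (1.30-fold, 1.28–1.33, not called).

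In all, 39 of the 42 genes had no maximum or minimum over the time course. A maximum or minimum was found for Pabpc1, Ddx6 and Xrn1, and for 22.2% of all genes tested. Ddx6 had its first maximum at 120 min, and 9.33% of all genes tested had a first maximum at or after 60 min. Xrn1 had a maximum at 45 min without a later minimum, and 1.2% of all genes tested had a first extremum before 60 min and no next one at or after 60 min.

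Levels per transcript length (rpkm, with the number of 58-base words unique to the gene as the length) spanned a wide range within single complexes. In unstimulated cells they ranged from 1.85 rpkm for Tob1 to 191 rpkm for Lsm7, with a median of 22.9 rpkm. The medians were 67.2 rpkm for the LSM ring, 63.8 rpkm for the exosome, 22.6 rpkm for CCR4-NOT and 9.72 rpkm for the decapping genes. Pabpc1 was at 78.8 rpkm at 0 min and at 136 rpkm at 120 min, and Ddx6 at 17.6 and 30.3 rpkm. Among the decapping genes, Dcps had the highest level at 0 min (53.5 rpkm) and Dcp1b the lowest (2.49 rpkm). Rpkm is relative to the total counts of a library and therefore gives smaller ratios over time than normalized counts.

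The ratios of the decay genes were related to transcript length, as were those of other genes. Spearman's coefficient between the length of the longest transcript and the log2 ratio was 0.67 at 45 min over the 42 genes and 0.49 over 10359 genes tested that have a length. At 120 min it was 0.49 and 0.18. These coefficients are across genes, which share libraries and scale and are not independent replicates. Among all genes tested, the median log2 ratio at 45 min was −0.23 in the shortest of 20 bins of length (up to 876 bases) and 0.39 in the longest (7778 bases or more). The decay complexes differ in length: the LSM and exosome genes are mostly short, whereas Xrn1, Ddx6, Dcp2 and Cnot6l are long.

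When each ratio was divided by the median ratio of its length bin, a correction chosen after the data were seen, the log2 ratios of Pabpc1 were 1.13 at 45 min and 0.99 at 120 min and those of Ddx6 were 0.72 and 0.86, all called. The log2 ratio of Xrn1 at 45 min became 0.57 and was no longer called. That of Cnot6l at 45 min became 0.18 and that of Cnot6 0.50, whereas without the correction Cnot6l (0.57) was above Cnot6 (0.44). Cnot7 at 120 min (0.71) and Tob1 at 45 min (0.74) were called after the correction. The corrected log2 ratios of the exosome genes at 45 min lay on both sides of 0, from −0.29 for Exosc4 to 0.17 for Exosc10.

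**Figure D4:**
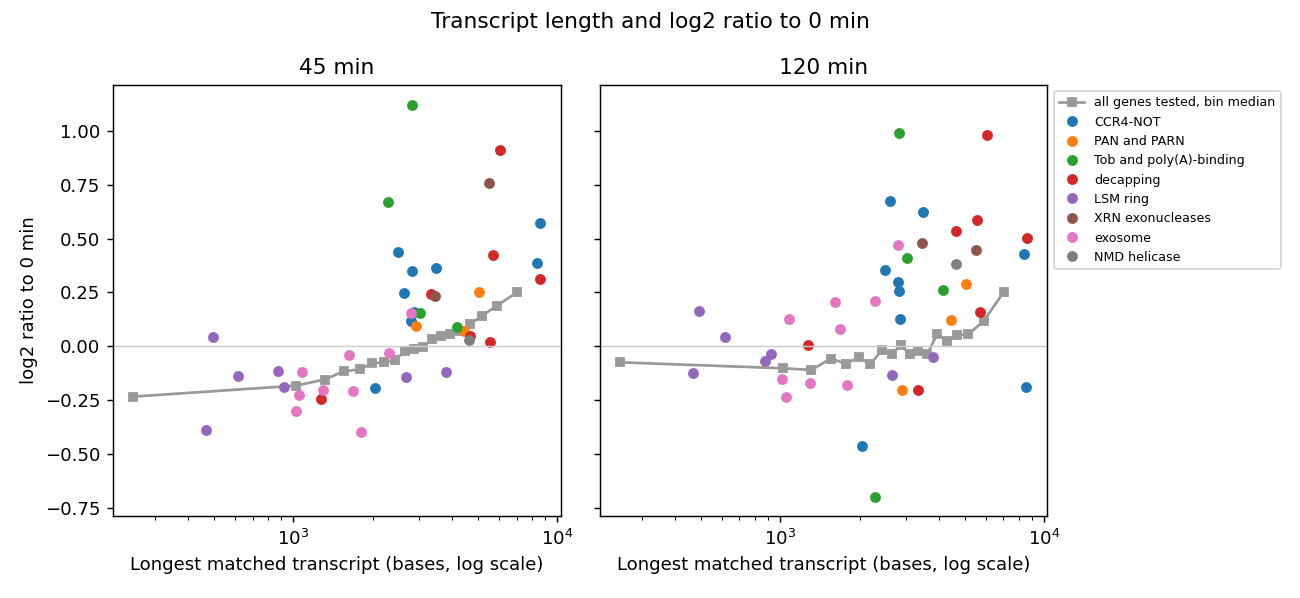
Log2 ratio to 0 min of the 42 genes (coloured by complex) against the longest matched transcript (bases, log axis) in the 45 and 120 min libraries, with grey squares for the median of all genes tested in bins of length, the longest bin left out. At 45 min the grey line climbs from −0.23 to 0.25, and Pabpc1, at 1.12, is far above the genes of similar length, whereas most LSM and exosome genes lie below 0.

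Other genes of mRNA decay were followed with a separate list, of which 55 were found in the table and 54 were tested. At 45 min, 7 of 54 were called higher and 0 lower (4.6% and 1.88% of all genes tested). At 60 min, 4 of 54 were called higher and 0 lower, and at 120 min again 4 and 0. The shares of all genes tested were 4.05% higher and 3.16% lower at 60 min, and 9.27% and 8.52% at 120 min. Btg2 and Btg1 encode relatives of the TOB proteins that bind CNOT7 and CNOT8. Btg2 had normalized counts of 1919.7, 5348, 38815, 58425, 34051, 11881, 11519 and 12708, a 30.4-fold difference at 45 min, 17.7-fold at 60 min (17.0–18.5) and 6.62-fold at 120 min (6.33–6.92). It was highest in the 30, 45 and 60 min libraries and called at all 7 time points. Btg1 had 8255, 9674, 10461, 14079.8, 16763, 24062, 26344 and 24154, a 2.03-fold difference at 60 min (1.98–2.08) and 2.93-fold at 120 min (2.86–2.99). It was called from 45 min on and was high in the 3 last libraries.

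Ccrn4l, the older symbol of Noct, encodes nocturnin, which is related to CNOT6 in its catalytic domain. Its normalized counts were 959, 1179, 1263, 1585, 2274, 4091, 5212 and 7413, each above the one before it, and it was 7.73-fold higher at 120 min (7.26–8.23). Pnrc1, which encodes a protein that binds the decapping complex, was called at 30 min (2.07-fold), 45 min (2.70-fold, its highest) and 60 min (2.12-fold, 2.02–2.24). It was at 0.974-fold at 120 min (0.917–1.03). Patl1, which encodes a protein that connects the LSM ring with DDX6, was called at 45 min (1.66-fold) and 120 min (1.67-fold, 1.58–1.77). It was at 1.33-fold at 60 min (1.25–1.41). The median log2 ratio of the 54 genes was 0.13 at 60 min and 0.16 at 120 min.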

How the data were processed

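RNA of RAW264.7 cells (8 libraries, 1 per time point of LPS) had been depleted of ribosomal RNA and sequenced. According to the methods of the study, the authors aligned 58-base reads by Bowtie against the RefSeq transcriptome (mm10 refGene), allowed 2 mismatches, kept all alignments of the best stratum, discarded reads that matched more than 1 gene symbol, and deposited the raw read counts per gene symbol that are used here. The submitters' processing notes name CASAVA 1.8.2 and DESeq 1.10.1, and the version of Bowtie is not given in the sources used here. The table holds 23143 gene symbols, and no column was left unused. Isoforms are summed, and reads shared between gene copies are missing from both.

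Median-of-ratios size factors, the blind dispersion (0.0287 plus 0.853 divided by the mean normalized count) and an exact negative binomial test for the 28 possible pairs were programmed in Python 3.11.15 after the DESeq settings of the methods. In simulated data with 4-fold changes, 194 of 200 changed genes were found and 216 of 10292 unchanged genes were called. The simulated dispersion was smaller (0.005 plus 0.5 divided by the mean) and the changes larger than here. The simulation therefore does not tell how calls near the limits behave. The packages were numba 0.67.0, scipy 1.17.1, pandas 2.3.3 and numpy 2.4.6. Because 1 library per group leaves a quasi-likelihood fit without residual degrees of freedom, no p-value is printed. Maxima and minima followed the definitions of the methods, with early meaning before 60 min. Ratios of 2 libraries carry exact conditional binomial 95% intervals, and ratios of 2 genes carry intervals from the normal approximation of the log ratio of counts. Lengths and unique 58-base words were taken from GRCm38 transcripts of GENCODE vM21, joined through their RefSeq accessions, and coordinates from the RefSeq gene table of GRCm38. Figures were drawn with matplotlib 3.10.9.

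The genes and lists were chosen with earlier results of these data known. Values in all libraries are given for genes called at 1 or more time points, the 4 with the highest and the 4 with the lowest log2 ratio at 120 min, and 7 pairs of related genes, and of the second list, for which 61 symbols including older ones were written, the genes called at 60 or 120 min are named. Angel1 was not tested because its mean was below 100. Alternatives were total counts, total counts without Rn45s and TMM factors from edgeR 4.0.16 (R 4.3.3) as the scale, the fold limit alone, a log2 limit of 1, Benjamini-Hochberg adjustment, a mean of at least 10 or no filter, a pseudocount of 1, the length of the longest transcript, the 0, 30, 60 and 120 min libraries alone, and each stimulated library left out. The correction for transcript length was added after the data were seen. Spike-in transcripts were not used here.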

Additional observations from a re-analysis of the deposited data

How the results depend on the processing

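With 1 library per time point, spread between cultures is unknown, and counts of calls depended on the scale and the limits. With total counts as the scale, 1 of the 42 genes was called higher at 45 min and 0 at 75, 90 and 120 min, and 1 (Tob1) was called lower at 120 min. With total counts without Rn45s, 1 was called higher at 75 min and 1 (Tob1) lower at 120 min. With the fold limit alone, 5, 7, 4 and 7 genes were higher at 45, 75, 90 and 120 min, 1 was lower at 120 min, and 11 had a maximum or minimum. Of the second list 8 were higher and 1 lower at 120 min by this limit (15.1% and 14% of all genes tested). The share of all genes with a maximum or minimum was counted under the main rule alone (22.2%). With a log2 limit of 1, 1 gene was higher at 45 min, 0 at 75, 90 and 120 min, and 1 had a maximum or minimum. With Benjamini-Hochberg adjustment, 0 were higher at 45, 75 and 90 min, 1 at 120 min (Pabpc1), and 1 had a maximum or minimum. The median log2 ratio of the 42 genes was 0.0206 at 60 min and −0.0390 at 120 min when scaled by total counts. Leaving Rn45s out of the totals gave 0.0155 and −0.0308. By construction, the scales shift all genes, the fold limit alone drops the test, and the stricter limits admit fewer genes. TMM factors, the filters on low counts, the 0, 30, 60 and 120 min libraries alone, the correction for transcript length and leaving out a stimulated library moved none of these counts by more than 1.5 times. Which genes were called did change with the correction for length, as given for Xrn1, Cnot7 and Tob1. Leaving out the 45 or the 60 min library changed the pattern of Pabpc1. No called gene changed its direction under an alternative. No paired analysis was possible because each time point has 1 library and the labels give no replicate numbers. A pseudocount of 1 changed no call, and the level of Pabpc1 at 0 min was 77.2 rpkm with the longest transcript as the length. Counting error weighs most on Tob1, whose lowest normalized count was 285.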

Other observations

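In the second list of mRNA decay genes, Zcchc11 and Hnrnpd, singled out after their values were seen, were called without a call at 60 or 120 min. Zcchc11 encodes a terminal uridylyltransferase that tags deadenylated mRNAs. Its normalized counts were 2649, 3497, 3790.5, 4508, 3411, 3426, 3263 and 2576 from 0 to 120 min, with a call at 45 min (log2 ratio 0.77) and a 120 min library close to the unstimulated one (−0.04). Hnrnpd encodes AUF1, a protein that binds AU-rich elements and promotes or delays decay. Its normalized counts were 8024, 11642.5, 10639, 13638, 10354, 15214, 13863 and 12238, with calls at 45, 75 and 90 min (log2 ratios 0.77, 0.92 and 0.79), and these 3 libraries are among those with the larger share of Rn45s, whose part in the result was not tested. The lowest log2 ratio of the tested genes of this list at 120 min was that of Nudt16, which encodes a second decapping enzyme (−0.53, not called).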
